A study of Homo sapiens with 4 samples.

Results

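The ID proteins and the feedback genes of bone morphogenetic protein (BMP) signalling were followed across 4 Affymetrix whole-transcript arrays of human prostate cancer cells. Members were the genes ID1, ID2, ID3, ID4, SMAD6, SMAD7, BAMBI, BMPR1A, SMAD1 and SMAD5, taken by symbol in the platform annotation. Of these 10 genes, 9 had a named probe set, 1 each, among 18417 genes measured, and BMPR1A is not analysed here. ID1 was chosen by its measured drop on the transfected LTAD arrays, so its difference there is a description and supports nothing.

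The arrays were LTAD cells transfected with siPSF, an siRNA against PSF (the product of SFPQ), LTAD cells transfected with siControl, LTAD cells with no transfection, and LNCaP cells. LNCaP is an androgen-responsive prostate cancer line, and LTAD was derived from it by long growth without androgen, so the LTAD arrays share that origin. LTAD cells were grown without phenol red in charcoal-stripped serum. LNCaP cells spent their last 24 h under such conditions, with a lower share of serum. Line and culture therefore cannot be told apart in that comparison, nor can transfection and whatever else differed between the transfected and untransfected cultures. Each group was 1 array, so no p-value or error can be given, every difference is between single arrays, and their number limits the precision. In such bulk RNA, fewer expressing cells and less RNA per cell cannot be told apart.

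BMP ligands bind a complex of type I receptors, such as BMPR1A, and type II receptors, which phosphorylates SMAD1 and SMAD5. These join SMAD4 in the nucleus and switch on ID1, ID2 and ID3, along with SMAD6, SMAD7 and BAMBI, which dampen the signal in turn. ID proteins have a helix-loop-helix domain without the basic region that contacts DNA. They pair with E proteins such as TCF3, TCF4 and TCF12 and keep these from binding DNA, and ID1 is best known for holding back differentiation and supporting proliferation.

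The promoter windows of ID1, ID3 and ID2 are shown because the first pair had the same order of levels over the arrays and ID2 did not. Each window runs from 250 bases before to 50 bases after the RefSeq start on GRCh38.p14 and is given 5′ to 3′ on the gene's strand, at chr20:31605039-31605338 (+) for ID1, chr1:23559452-23559751 (-) for ID3 and chr2:8681806-8682105 (+) for ID2. Capitals mark the TATA box TATAAA, the CCAAT box, the palindrome GGCGCC bound by BMP-activated SMADs and the SMAD-binding element CAGAC, all searched on both strands.
ID1: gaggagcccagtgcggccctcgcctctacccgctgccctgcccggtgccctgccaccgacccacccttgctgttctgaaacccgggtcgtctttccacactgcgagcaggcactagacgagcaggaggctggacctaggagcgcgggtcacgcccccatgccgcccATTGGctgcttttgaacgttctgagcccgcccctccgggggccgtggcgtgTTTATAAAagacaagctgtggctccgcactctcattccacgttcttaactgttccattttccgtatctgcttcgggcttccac
ID3: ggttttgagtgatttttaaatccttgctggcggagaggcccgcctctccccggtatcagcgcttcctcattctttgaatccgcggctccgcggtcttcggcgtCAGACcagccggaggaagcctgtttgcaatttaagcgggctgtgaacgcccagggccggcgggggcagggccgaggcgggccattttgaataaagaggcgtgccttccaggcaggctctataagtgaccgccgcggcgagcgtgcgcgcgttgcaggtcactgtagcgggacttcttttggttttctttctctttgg
ID2: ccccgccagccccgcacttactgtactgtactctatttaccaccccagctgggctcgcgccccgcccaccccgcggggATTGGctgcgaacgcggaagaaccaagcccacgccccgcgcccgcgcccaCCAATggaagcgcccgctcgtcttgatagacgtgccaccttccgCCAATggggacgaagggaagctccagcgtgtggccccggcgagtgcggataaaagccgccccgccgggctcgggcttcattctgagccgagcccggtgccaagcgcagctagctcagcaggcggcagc

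The ID1 window held a TATAAA match on each strand, overlapping and starting at positions -33 and -31, and a CCAAT match at -84, counted from the start site. ID3 held neither, and its capitals mark 1 CAGAC match at -147. ID2 held 3 CCAAT matches, at -172, -122 and -78. No GGCGCC was found in these 3 windows, whereas the BAMBI window held 3. Over all 34943 RefSeq windows of this length, TATAAA was present in 11.6%, CCAAT in 34.6%, GGCGCC in 19.2% and CAGAC in 45.3%. The E-box pattern CANNTG, found in 68.7% of windows, had 0 matches in ID1 and ID3 and 1 in ID2. These matches describe the letters of the windows. Regions farther from the start were not searched.

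Levels are quantile-normalized log2 values unless they are called deposited. This scaling gives the 4 arrays 1 distribution. The medians of the deposited columns were 6.04 for siPSF, 5.98 for siControl, 7.20 for untransfected LTAD and 6.91 for LNCaP. Both transfected columns thus lay below both untransfected ones. Any difference between arrays behind this shift cannot be told apart from transfection. A gene was kept when its level reached 7.23, the median of all gene values, on at least 1 array, which left 10117 genes. Of the 9 measured members 8 were kept, all but ID4, and SMAD7 was kept only through the untransfected LTAD array. No detection call was used here, so a level under 7.23 is a reading not shown to be above background. Genes at least 2-fold apart, a log2 difference of 1 or more, were counted as called. SFPQ, the siRNA target, read 9.87 with siPSF and 11.23 with siControl, a difference of -1.37. Of 10 luminal prostate markers, 7 were measured, and 6 of them (KRT8, KRT18, KLK2, HOXB13, FOXA1 and EPCAM) reached 7.23 on every array, whereas KLK3 was under it with siPSF. None of 6 endothelial markers and none of 5 measured blood and immune markers reached 7.23 on any array. The highest of them was CLDN5 at 7.20.

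**Figure D1:**
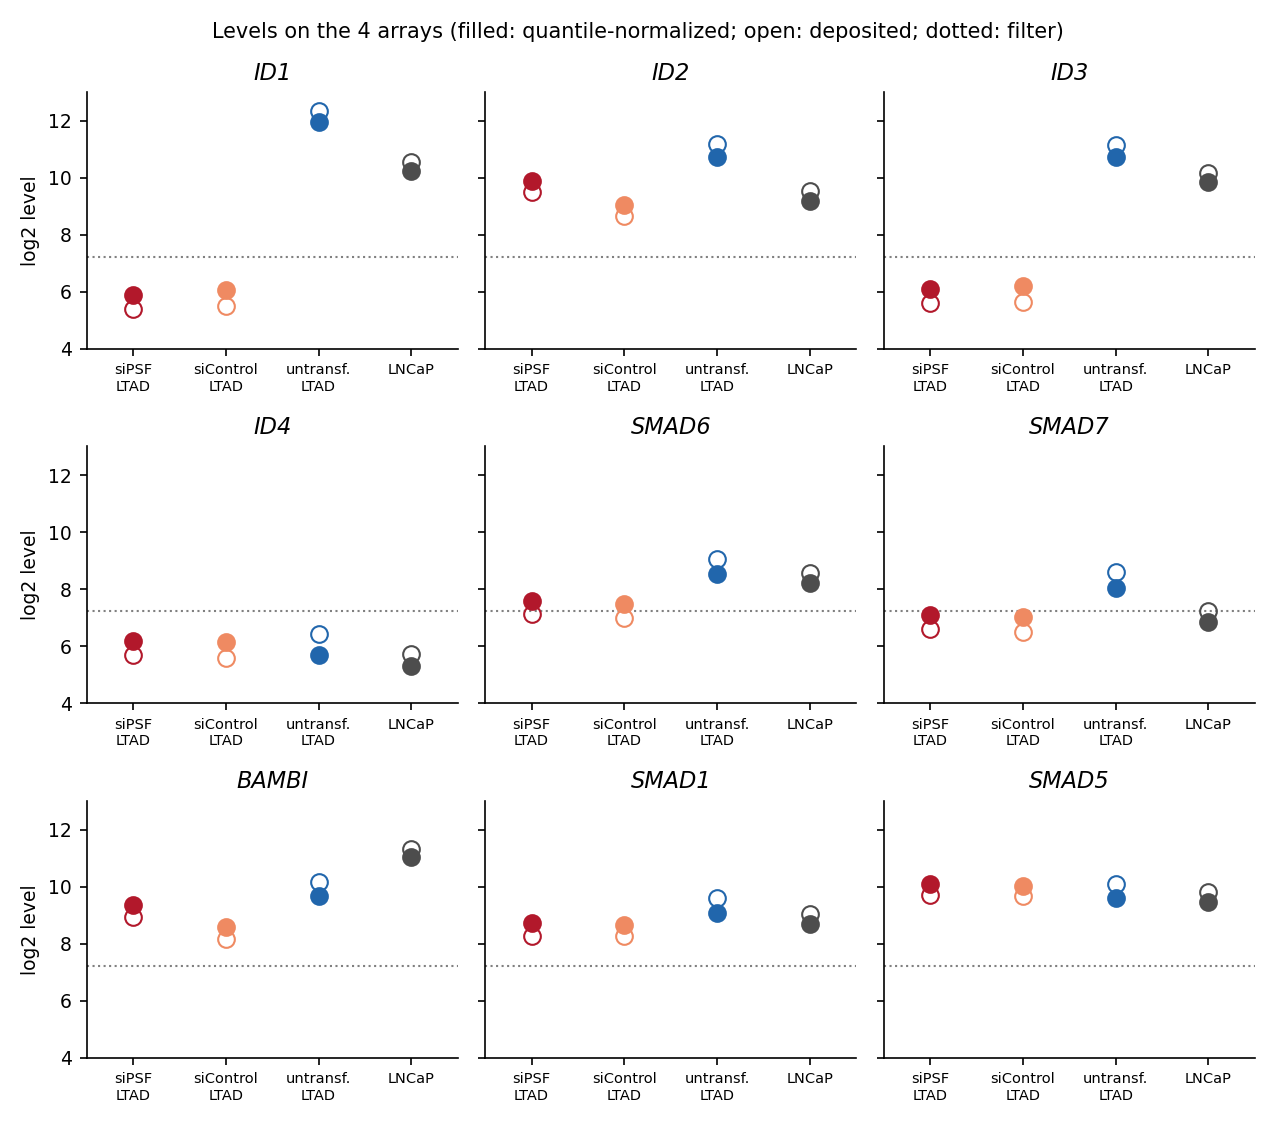
Log2 level (y axis) of each of the 9 measured members on the siPSF LTAD, siControl LTAD, untransfected LTAD and LNCaP arrays (x axis), with 1 point an array. Filled points are quantile-normalized, open points are deposited values and the dotted line is the filter at 7.23. ID1 and ID3 lie under the line on both transfected arrays and near 10 to 12 on the untransfected ones, and ID4 is under it throughout. The filled points of SMAD1 and SMAD5 are nearly flat.

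Among the ID genes, ID1 and ID3 were near 6 on both transfected LTAD arrays and far above the filter in untransfected LTAD and LNCaP. ID2 stayed above the filter throughout, and ID4 stayed below it. ID1 read 5.89 with siPSF, 6.06 with siControl, 11.96 in untransfected LTAD and 10.24 in LNCaP. ID3 read 6.10 with siPSF, 6.21 with siControl, 10.72 in untransfected LTAD and 9.85 in LNCaP. Both genes thus had the same order, with untransfected LTAD highest and the transfected arrays within 0.17 and 0.11 of each other. ID2 read 9.90 with siPSF, 9.05 with siControl, 10.74 in untransfected LTAD and 9.19 in LNCaP. For ID2 the siPSF array was second highest, and LNCaP and siControl lay 0.15 apart. ID4 read 6.19, 6.15, 5.70 and 5.31 in the same array order. On the deposited scale untransfected LTAD was the highest of the ID4 readings at 6.43, so their order depended on the scaling.

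The feedback inhibitors spanned smaller ranges than ID1 and ID3, at 1.05 for SMAD6, 1.19 for SMAD7 and 2.46 for BAMBI. SMAD6, which mainly blocks BMP receptor signalling, read 7.58 with siPSF, 7.48 with siControl, 8.53 in untransfected LTAD and 8.22 in LNCaP. SMAD7, which inhibits both BMP and TGF-beta receptors, read 7.08 with siPSF, 7.02 with siControl, 8.04 in untransfected LTAD and 6.85 in LNCaP. SMAD6 was therefore lower on the transfected arrays than on either untransfected one, whereas SMAD7 stood out on the untransfected LTAD array alone. BAMBI, a pseudoreceptor without a kinase domain, read 9.36 with siPSF, 8.59 with siControl, 9.65 in untransfected LTAD and 11.05 in LNCaP. It was the measured member with its highest level in LNCaP. The signal-carrying SMADs varied least. SMAD1 ranged over 0.42, with 8.72 on siPSF, 8.67 on siControl, 9.09 on untransfected LTAD and 8.68 on LNCaP. SMAD5 ranged over 0.62, with 10.10 on siPSF, 10.03 on siControl, 9.60 on untransfected LTAD and 9.48 on LNCaP.

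The comparison of siPSF with siControl asked how the members stood after knockdown of PSF. None of the 8 kept members was 2-fold apart, where 0.089% of all kept genes were called higher and 0.722% lower. ID2 and BAMBI had the largest differences. ID2 was 1.80-fold higher with siPSF, at 9.90 against 9.05, and only 17 of the 10117 kept genes had a larger positive difference than its 0.85. BAMBI was 1.71-fold higher, at 9.36 against 8.59, a difference of 0.78 exceeded by 22 genes. On deposited values the differences were 0.84 and 0.76, and with arrays centred on their medians 0.78 and 0.70. With single arrays, differences of this size cannot be set against replicate error. The other measured members lay between -0.17 for ID1 and 0.10 for SMAD6, inside the 5th to 95th percentile range of all kept genes, -0.49 to 0.33. ID1 and ID3 read under the filter on both arrays. SMAD1 and SMAD5, at 0.05 and 0.07, turned to -0.04 and -0.02 with median centring. Against untransfected LTAD in place of siControl, ID2 with siPSF was lower, with a difference of -0.84, and BAMBI likewise at -0.29. With median centring these were -0.52 for ID2 and -0.06 for BAMBI, and on deposited values -1.68 and -1.22. For both genes the direction thus differed between the choices of control array, though the BAMBI difference was small with median centring.

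**Figure D2:**
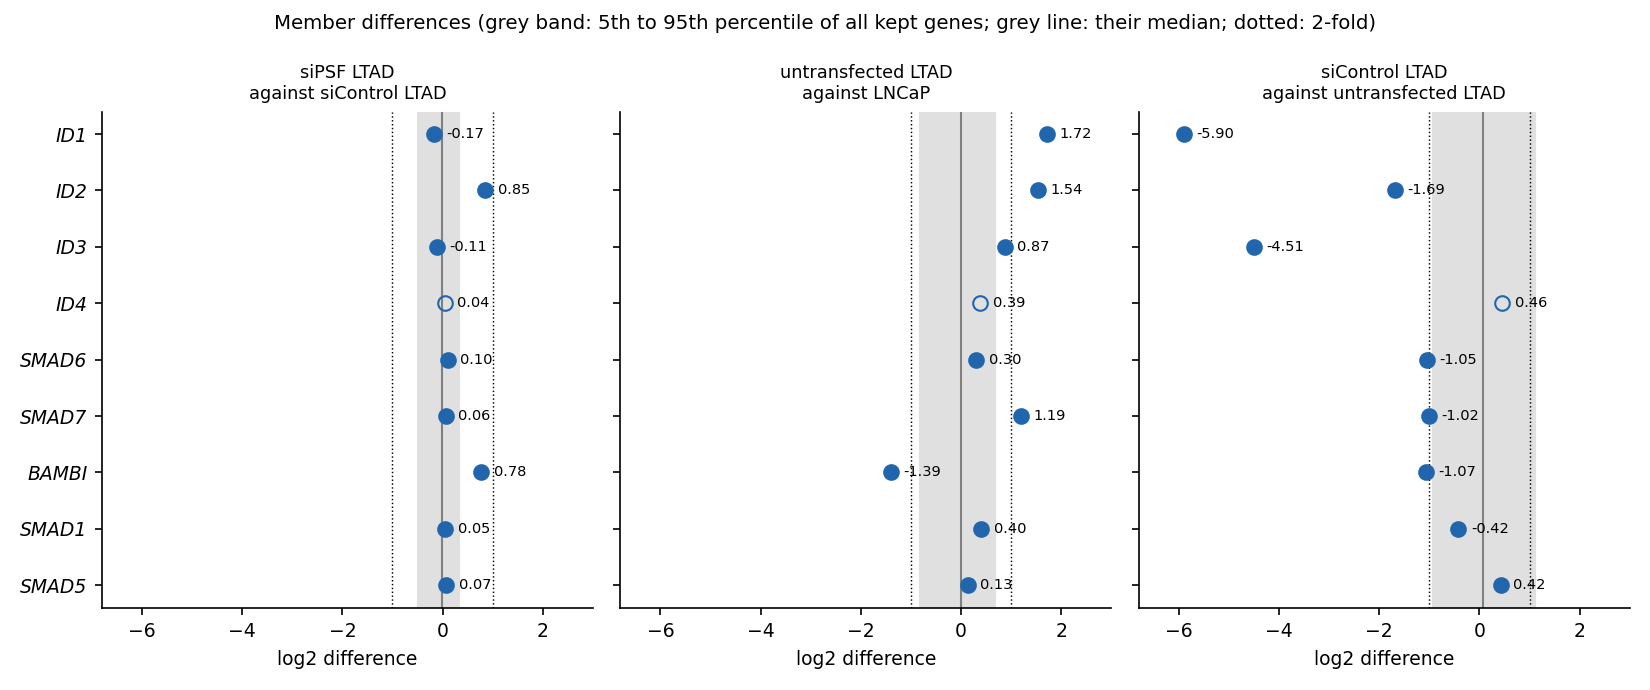
Log2 difference of quantile-normalized levels (x axis) for the 9 measured members (y axis) in 3 comparisons of single arrays. The grey band is the 5th to 95th percentile of all 10117 kept genes, the grey line their median, the dotted lines 2-fold, and the open point the unkept ID4. ID2 at 0.85 and BAMBI at 0.78 lie right of the band for siPSF, and ID1 at -5.90 and ID3 at -4.51 lie far left of it for siControl against untransfected LTAD.

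Untransfected LTAD was set against LNCaP, the line it came from. ID1, ID2 and SMAD7 were at least 2-fold higher in LTAD and BAMBI at least 2-fold lower. That is 3 and 1 of 8 kept members, where 2.2% of all kept genes were called higher and 3.43% lower. SMAD7 was kept only through the LTAD array, where it is high, so its place in the count is fixed by the filter, and nothing is read from the count. ID1 was 3.29-fold higher, at 11.96 in LTAD against 10.24 in LNCaP, and 83 genes had a larger positive difference. ID2 was 2.91-fold higher, at 10.74 against 9.19. SMAD7 read 8.04 against 6.85, a difference of 1.19 whose LNCaP level was under the filter. BAMBI was 2.63-fold lower, at 9.65 in LTAD against 11.05 in LNCaP. The feedback genes therefore differed in direction, with SMAD6 at 0.30. ID3 was just outside the threshold at 0.87 and just inside it on deposited values at 1.001. On that scale all kept genes had a median of 0.20, and 4 of 8 members were called higher beside 3.21% of kept genes. SMAD1 at 0.40 and SMAD5 at 0.13 were under 2-fold.

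When transfected LTAD arrays took the place of untransfected LTAD, ID1 and ID3 lay on the other side of LNCaP. ID1 differed from LNCaP by -4.35 with siPSF and -4.18 with siControl. ID3 differed from LNCaP by -3.75 with siPSF and -3.64 with siControl. With BAMBI, 3 of 8 kept members were called lower on each transfected array, where 4.18% of kept genes were lower than LNCaP with siPSF and 2.95% with siControl. ID1 was chosen for its low level on these arrays, so nothing is read from these counts. The excess of ID1 in LTAD over LNCaP was thus read on 1 of the 3 LTAD arrays. BAMBI was below LNCaP on all of them, 3.22-fold with siPSF, 5.52-fold with siControl and 2.63-fold with no transfection. SMAD7 stayed within 0.23 of LNCaP on the transfected arrays. These differences share the LNCaP array.

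The siControl array against untransfected LTAD shows how far apart the members lay on arrays of the same line. ID1, ID2, ID3, SMAD6, SMAD7 and BAMBI were each at least 2-fold lower with siControl, which is 6 of 8 kept members, and none was higher. Of all kept genes 4.36% were called lower and 6.34% higher. ID1 was chosen for this difference, so nothing is read from the count. The siControl levels of ID1 and ID3 were under the filter, so their differences of -5.90 and -4.51 are readings against levels not shown to be above background, with no rank or fold given. ID2 was 3.22-fold lower, at 9.05 with siControl against 10.74.

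SMAD6 at -1.05, SMAD7 at -1.02 and BAMBI at -1.07 lay just past the 2-fold threshold. With arrays centred on their medians they were under it, at -0.83 for SMAD6, -0.87 for SMAD7 and -0.76 for BAMBI, which left ID1, ID2 and ID3, 3 of 8, against 2.82% of kept genes lower. On deposited values 7 of 8 were called, SMAD1 included at -1.33, where 43.4% of kept genes were called lower and their median was -0.92. SMAD5 was higher by 0.42 after quantile normalization and by 0.78 with median centring, but lower on deposited values at -0.43, as was ID4 at -0.84 against 0.46 after quantile normalization. With siPSF in place of siControl, the calls were ID1 at -6.07 and ID3 at -4.62, 2 of 8, where 5.2% of kept genes were lower. SMAD6 at -0.94 and SMAD7 at -0.96 were then just outside the threshold and ID2 was at -0.84. ID1 was chosen for its drop on the transfected arrays, where ID1 and ID3 read under the filter. SMAD7 was kept only through untransfected LTAD. Nothing is therefore read from the counts in any of these settings.

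Markers that moved with ID1 and ID3 here included KLK3, an androgen-induced luminal gene, at 7.47 with siControl against 11.06, and LUM, a matrix protein of stromal cells, at 3.21 against 8.80. The other measured luminal markers stayed within 2-fold with siControl after quantile normalization. Against untransfected LTAD, KLK2 was at -0.90 with siControl and past 2-fold with siPSF at -1.23, whereas EPCAM was higher by 0.90 and 0.84. Of the 7 measured luminal markers, 2 read higher with siControl and 1 with siPSF, and nothing is read from these counts. The summed level of the 8 fibroblast and smooth muscle markers was 9.47 with siControl, against 10.04 in untransfected LTAD and 9.09 in LNCaP, and that of the 6 endothelial markers was 8.17, against 8.13 and 8.13. Of these 8 markers, 5 read higher with siControl than in untransfected LTAD and 3 read lower, LUM among them. Without LUM the summed level was 9.45 with siControl, against 9.25 in untransfected LTAD and 9.06 in LNCaP, so the list's lower sum with siControl rested on LUM. LUM was at 3.78 in LNCaP, where ID1 and ID3 were above the filter. The part of such cells in these differences was not tested.

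**Figure D3:**
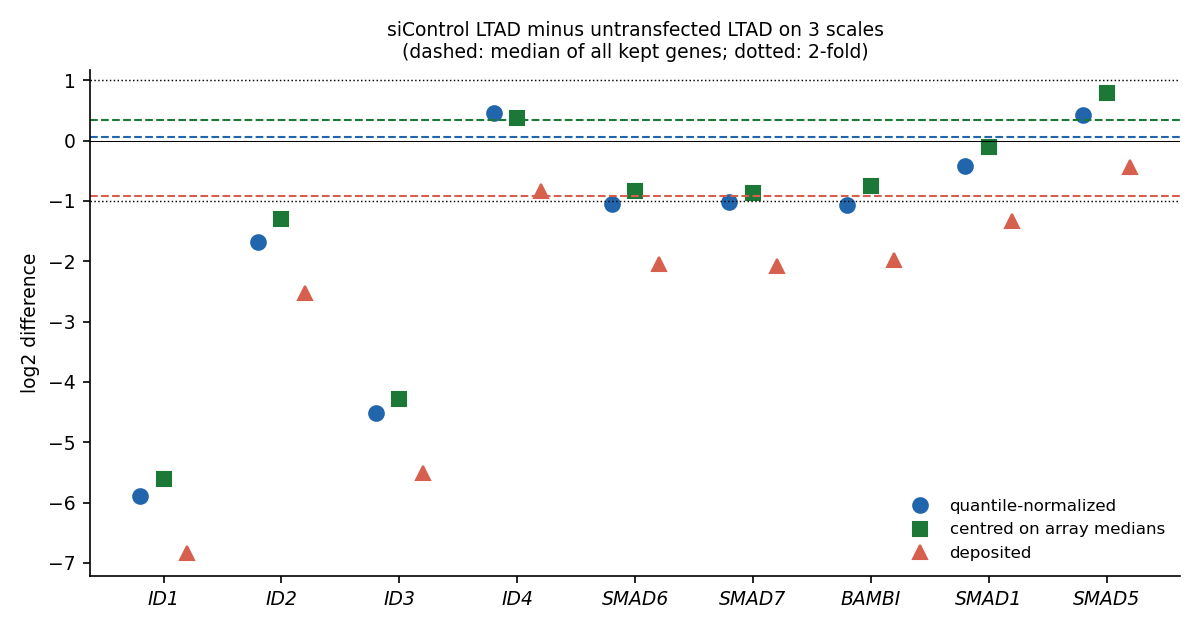
Log2 difference of siControl LTAD minus untransfected LTAD (y axis) for the 9 measured members (x axis), after quantile normalization (circles), with arrays centred on their medians (squares) and as deposited (triangles). Dashed lines are the medians of all kept genes on each scale, 0.06, 0.35 and -0.92, and dotted lines mark 2-fold. ID1, ID2 and ID3 lie past 2-fold on every scale, whereas SMAD6, SMAD7 and BAMBI cross it with median centring.

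Other genes of the pathway came from 7 lists with 125 entries, of which 119 were measured and 57 kept. In siPSF against siControl none of the 57 was 2-fold apart, and their median difference was 0.06 beside -0.02 over all kept genes. In untransfected LTAD against LNCaP 6 were higher and 1 lower, or 10.5% and 1.75%, beside the 2.2% and 3.43% of all kept genes. In siControl against untransfected LTAD 3 were higher and 4 lower, or 5.26% and 7.02%, beside 6.34% and 4.36%. The 3 higher were BMP7, CHRDL1 and TCF4, kept only through transfected arrays, where they are high. HEY1, counted in the last 2 comparisons, was kept only through untransfected LTAD, where it is high. Their places in the counts are fixed by the filter, so nothing is read from the counts. The pooled median in siControl against untransfected LTAD was -0.03 beside 0.06.

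Among ligands, 3 of 18 measured BMP and GDF genes were kept. BMP7, a BMP ligand of epithelia, read 7.88 with siPSF, 8.15 with siControl, 4.80 in untransfected LTAD and 4.87 in LNCaP. It was above the filter on both transfected arrays, where ID1 and ID3 were under it, and below it on the others. BMP6 went the other way, at 6.41 with siPSF, 6.57 with siControl, 7.22 in untransfected LTAD and 7.54 in LNCaP. It passed the filter through LNCaP alone and differed from LNCaP by -1.13 with siPSF and -0.97 with siControl. GDF11, an activin-like ligand, was higher in LTAD than in LNCaP by 1.04, which became 0.90 with median centring. The 3 kept TGF-beta and activin ligands, INHBB, LEFTY1 and LEFTY2, stayed within 0.51 in all 3 comparisons. None of the 7 kept receptors and co-receptors was 2-fold apart in these 3 comparisons. BMPR2, the type II BMP receptor, read 11.02 with siPSF, 11.25 with siControl, 11.57 in untransfected LTAD and 10.87 in LNCaP. TGFBR3, a co-receptor, read 7.91 with siPSF, 8.20 with siControl, 8.12 in untransfected LTAD and 9.11 in LNCaP. It came nearest to 2-fold in untransfected LTAD against LNCaP at -0.99 and was past it in siPSF against LNCaP at -1.20.

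Of 14 measured extracellular antagonists 3 were kept. CHRDL1, a chordin-like protein that binds BMPs, read 7.32 with siPSF, 7.36 with siControl, 5.29 in untransfected LTAD and 5.05 in LNCaP. Like BMP7 it reached the filter on the transfected arrays alone, and its difference of 2.08 between siControl and untransfected LTAD was 0.81 on deposited values. Among 22 kept SMADs and intracellular regulators, SMAD9, a further BMP-responsive SMAD, read 7.64 with siPSF, 7.71 with siControl, 9.23 in untransfected LTAD and 8.28 in LNCaP. It was more than 2-fold lower with siControl than in untransfected LTAD at -1.52 and just under 2-fold above LNCaP in untransfected LTAD at 0.96. SMAD3, which carries TGF-beta signals, was higher in untransfected LTAD than in LNCaP by 1.01, or 0.87 with median centring. SMAD4, the shared partner, stayed between 10.06 and 10.14.

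Of 10 kept genes that BMP or TGF-beta are known to induce in other settings, 3 were called higher in untransfected LTAD than in LNCaP. They were HES1, HEY1 and MSX2, beside 2.2% of all kept genes, and PMEPA1 was called lower, beside 3.43%. The same 3 were called lower with siControl than in untransfected LTAD, beside 4.36%. The share of all kept genes called in both comparisons was not computed, so nothing is read from the count. HES1 read 8.70 with siPSF, 8.60 with siControl, 10.18 in untransfected LTAD and 8.61 in LNCaP. HEY1, like HES1 a transcriptional repressor that Notch also induces, read 6.42, 6.36, 7.62 and 6.04 in the same order, and passed the filter through untransfected LTAD alone. MSX2, a homeobox factor, read 8.45, 8.12, 9.16 and 7.79. All 3 were picked for being above both LNCaP and siControl in untransfected LTAD. Their peak on that array largely follows from the choice, and no likeness to the members is read from it. Unlike ID1 and ID3, they were not lower on the transfected arrays than in LNCaP by 2-fold. MSX2 differed between siControl and untransfected LTAD by -1.04, or -0.77 with median centring. PMEPA1, a membrane protein that restrains TGF-beta and androgen signalling, was at 7.44, 7.71, 8.58 and 9.64 in that array order. Its LTAD minus LNCaP difference of -1.06 was -0.87 on deposited values. Of the 10 genes, 7 read lower with siControl than in untransfected LTAD and 3 read higher, beside 4522 and 5595 of 10117 kept genes. Those higher were MSX1 by 0.38, KLF10 by 0.55 and BHLHE40 by 0.84, and BHLHE40 was past 2-fold with siPSF at 1.26. In untransfected LTAD, 5 of the 10 read above LNCaP and 5 below it, beside 5105 and 5007 of kept genes. HEY1 was kept only through untransfected LTAD, where it is high, so nothing is read from these counts.

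Among 9 kept bHLH genes, the E protein TCF4 was higher with siControl than in untransfected LTAD by 2.73, at 7.26 against 4.53, and read 7.09 with siPSF and 5.26 in LNCaP. It passed the filter through the siControl array alone. The other E proteins, TCF3 and TCF12, ranged from 8.54 to 9.03 and from 10.02 to 10.17 over the arrays. TWIST1, a bHLH factor of mesenchymal cells, was higher in untransfected LTAD than in LNCaP by 1.33, at 8.41 against 7.08. Its LNCaP level was under the filter.

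**Figure D4:**
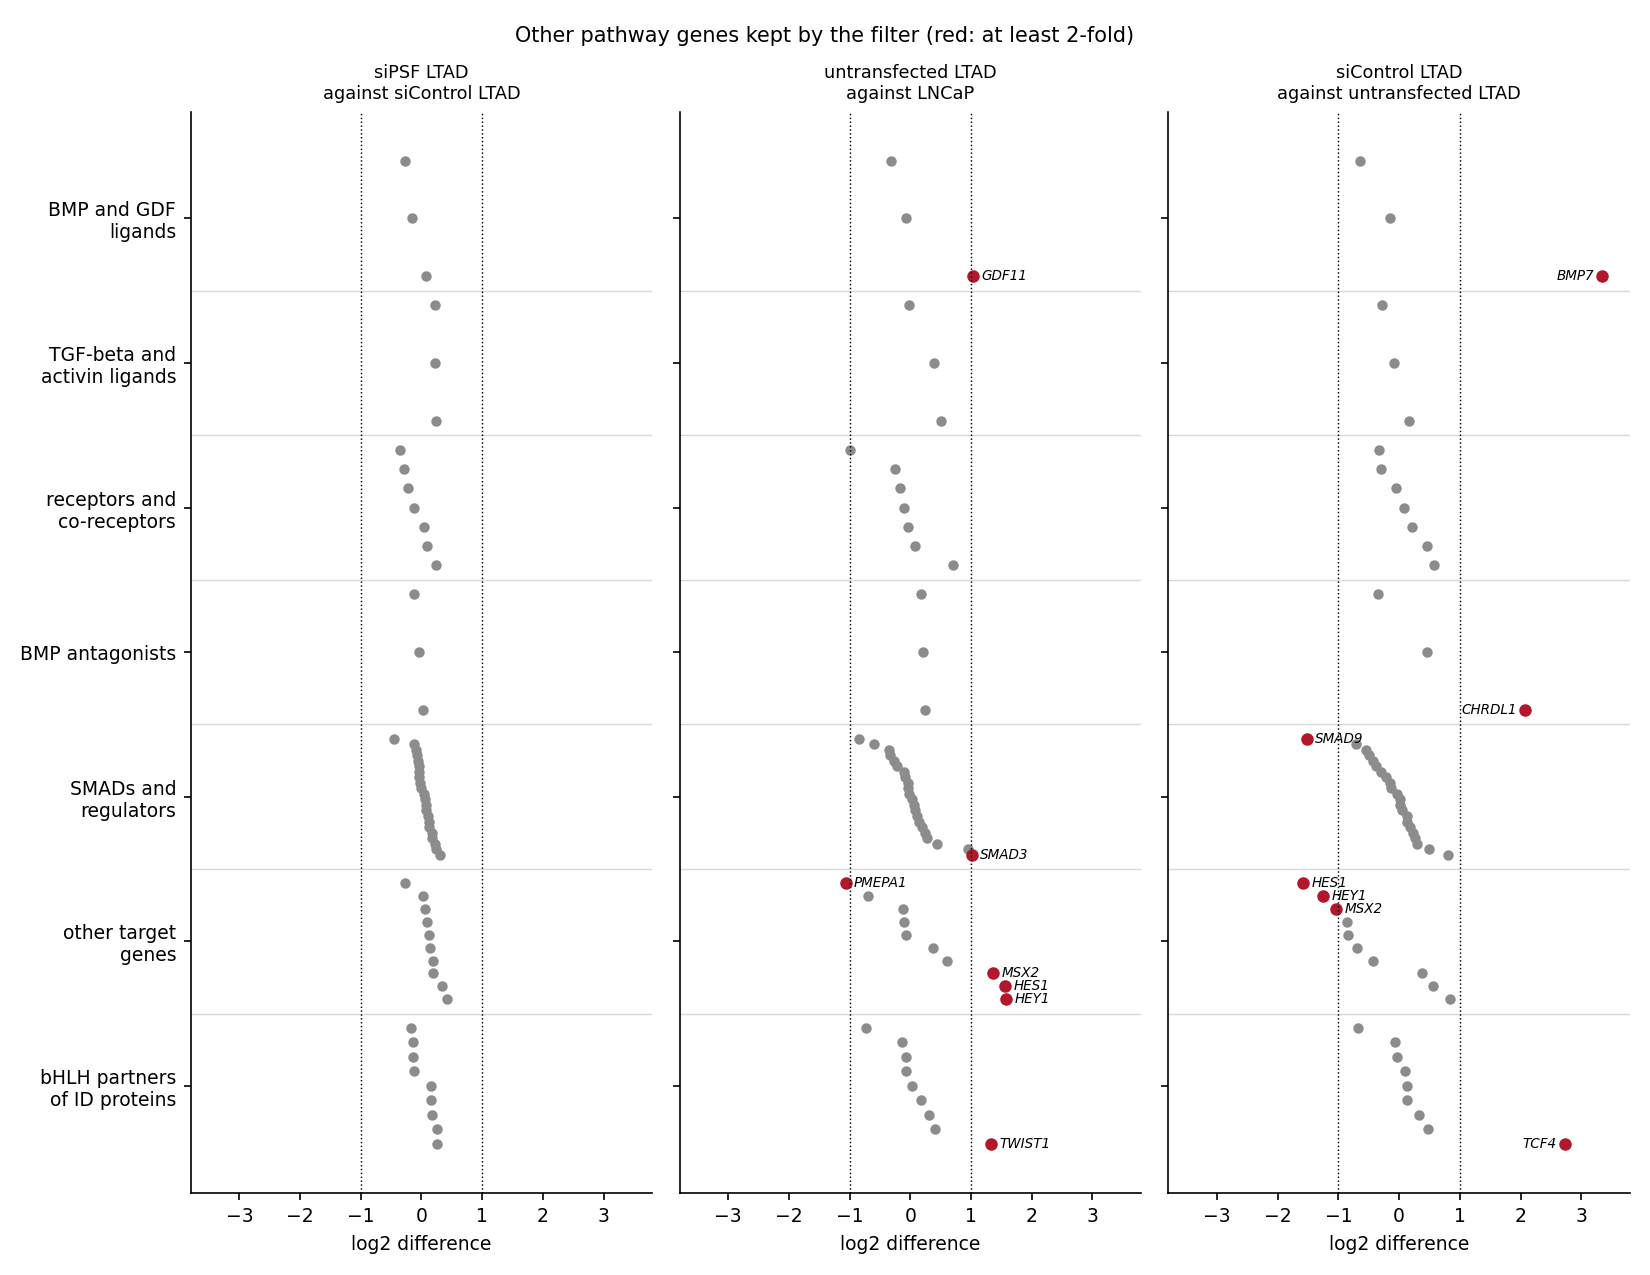
Log2 difference of quantile-normalized levels (x axis) for the 57 kept genes of 7 pathway lists (y axis, 1 band a list, genes sorted by value) in 3 comparisons of single arrays. Red points with names are at least 2-fold apart (dotted lines). No gene is red for siPSF against siControl, whereas HES1, HEY1 and MSX2 are right of the line in LTAD against LNCaP and left of it in siControl against untransfected LTAD.

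Genes with the profile nearest to that of ID1 were found as the smallest root-mean-square difference over the 4 arrays, each gene centred on its own mean, among 9967 other kept genes. They were DENND1B, which activates a Rab GTPase, at 0.19, ID3 at 0.58, AGR2, a protein disulfide isomerase, at 0.61, ADAMTS1, a secreted metalloprotease, at 0.72, CLU, a secreted chaperone, at 0.74, and MAP2, a microtubule protein, at 0.81. DENND1B read 4.45 with siPSF, 4.37 with siControl, 10.01 in untransfected LTAD and 8.69 in LNCaP. All 6 were under the filter on both transfected arrays and above it on both untransfected ones. ID2, SMAD6, SMAD7 and BAMBI were farther off, at 2.20 to 2.37. The measure counts size as well as shape. SMAD6, also lower on both transfected arrays than on both untransfected ones, ranged over 1.05 beside 6.07 for ID1. Nearest to ID3 were CLU at 0.28, AGR2 at 0.29, IGFBP3, an insulin-like growth factor binding protein, at 0.35 and MAP2 at 0.41, and ID1 came ninth among all genes. IGFBP3 differed from the others in staying above the filter, at 7.73 with siPSF, 7.55 with siControl, 11.77 in untransfected LTAD and 10.55 in LNCaP. With 4 arrays these are likenesses of profile only, in size as well as shape. The genes were picked for that likeness on the same arrays, so their shared shape follows from the choice.

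**Figure D5:**
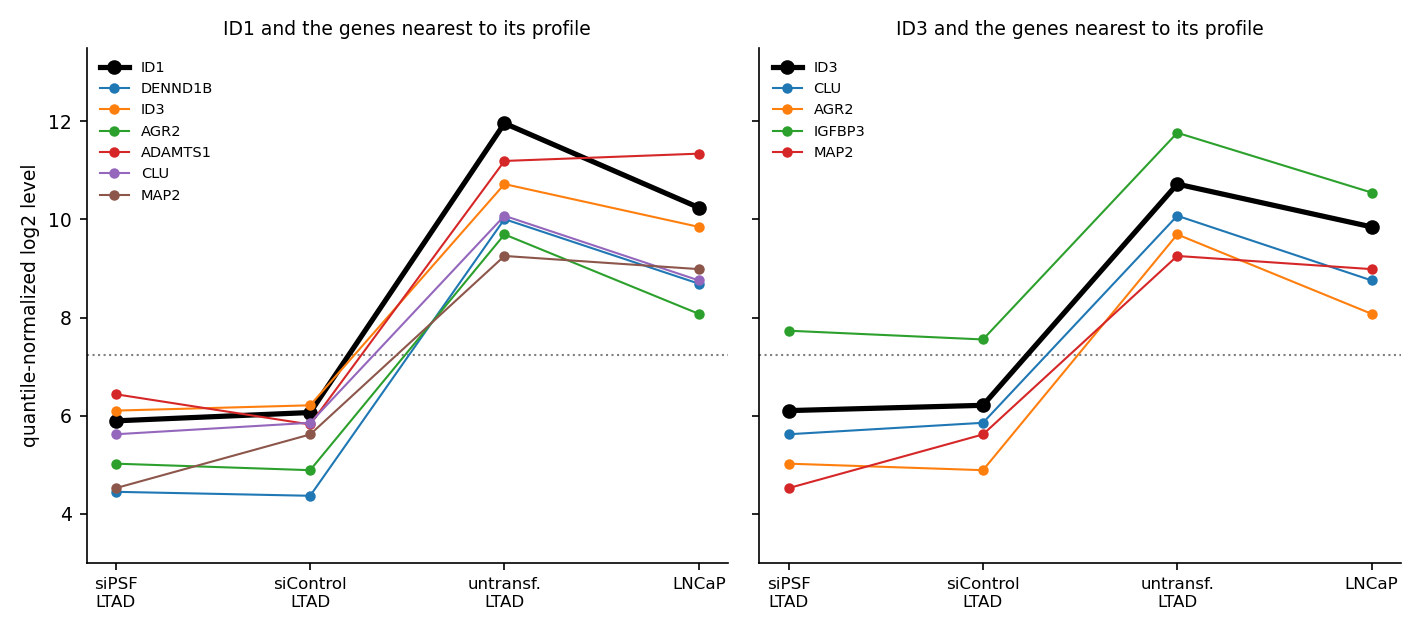
Quantile-normalized log2 level (y axis) on the 4 arrays (x axis) for ID1 and the 6 genes nearest to its profile (left) and for ID3 and the 4 nearest to it (right). Lines join the values of 1 gene and the dotted line is the filter at 7.23. Each gene is low on both transfected LTAD arrays and high on untransfected LTAD and LNCaP, with IGFBP3 alone above the filter throughout. The genes were picked for this likeness, so the shared shape follows from the choice.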

How the data were processed

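Total RNA of 4 samples was biotin-labelled and hybridised to Affymetrix whole-transcript arrays, 1 array a group, with groups taken from the sample titles. Per the submitters' processing notes, the authors made the deposited log2 values by RMA with Expression Console of Affymetrix. The sources used here do not give versions, settings, detection calls or array batches. Of 33297 probe sets, 19460 had 1 gene symbol, 1754 had several and named no gene, and 12083 were unnamed here. Symbols were updated by Entrez ID to RefSeq (GRCh38.p14), which matched 19429. Where a gene had more than 1 probe set (769 genes), the brightest by mean over the arrays stood for it. The 4 columns were quantile-normalized over all probe sets with numpy 2.4.6 and pandas 2.3.3 in Python 3.11.15, since their medians differed by 1.22. The computation was tested on simulated data.

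Named genes were the members, SFPQ, list genes at least 2-fold apart, and the 6 and 4 genes nearest in profile to ID1 and ID3, small RNA and olfactory receptor genes left out. BMP6, BMPR2, TGFBR3, SMAD4, MSX1, KLF10, BHLHE40, TCF3, TCF12, KLK3, LUM, CLDN5, the other luminal markers and the TGF-beta and activin ligands were named after their values were seen. The members and lists were chosen with earlier results of these data known. Alternatives were deposited values, median centring, no filter, a filter at the 75th percentile, the mean of probe sets and another array in each comparison.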

Additional observations from a re-analysis of the deposited data

How the results depend on the processing

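No paired analysis was possible because each group held 1 array, and for the same reason no array could be left out. With the filter at the 75th percentile, genes 2-fold apart came to 42 in place of 82 for siPSF against siControl, 305 in place of 570 for LTAD against LNCaP and 602 in place of 1082 for siControl against untransfected LTAD, since fewer genes were counted. That filter left 3 of the pathway list genes in each of the last pair of comparisons, in place of 7. With untransfected LTAD as the control for siPSF, 1072 genes, 8 of 57 pathway list genes and 2 of 8 members were 2-fold apart. These stood in place of 82, 0 and 0. Of all kept genes 5.4% were then higher and 5.2% lower, and of pathway list genes 7.02% and 7.02%. With siControl LTAD against LNCaP, 4 pathway list genes were 2-fold apart in place of 7. For siControl against untransfected LTAD, deposited values gave 4856 genes, 65 higher and 4791 lower, and 35 pathway list genes, 1 higher and 34 lower, because of the scale shift. Median centring gave 5 pathway list genes higher and 3 lower there, beside 3 and 4. It left 3 of 8 members in place of 6, with 1245 genes (12.3%) higher and 286 (2.82%) lower, beside 641 and 441 after quantile normalization. For LTAD against LNCaP the split of higher and lower genes was 355 and 255 on deposited values and 163 and 395 with median centring, beside 223 and 347. The pathway list genes split there into 9 and 0 on deposited values and 4 and 2 with median centring, beside 6 and 1. With siPSF in place of siControl against untransfected LTAD, 2 of 8 members, ID1 and ID3, were called lower, beside 5.2% of kept genes. ID1 was chosen for this drop and both read under the filter with siPSF, so nothing is read from that count. No member or named gene called at 2-fold changed sign under deposited values, median centring or the mean of probe sets. No detection call was used, so readings under the filter limit ID4 on every array, ID1 and ID3 on the transfected arrays, and SMAD7 on all but untransfected LTAD.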
